A study of Mus musculus with 16 samples.

Results

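The collagen genes are the 44 rows, out of 23235 in the deposited table, whose symbol is Col, a number, the letter a and a second number, such as Col1a1. They were grouped by the kind of assembly the protein forms. The fibrillar class had 11 genes, the basement membrane class 9, the fibril-associated collagens with interrupted triple helices (FACIT) 9 and the transmembrane class 4. The other 11 genes belong to types VI, VIII, X, XXVI and XXVIII. The study took skin of mouse embryos at day 14.5 and sorted its cells by flow cytometry into 8 fractions, with 2 libraries each and 16 in all. The labels name the fractions by short forms. Knowledge of the study gives Pc as placode (the epidermal thickening that starts a hair follicle), Epi as epidermis, DC as dermal condensate (the fibroblast cluster under the placode), Fb as dermal fibroblasts, Sch as Schwann cells (the glia of nerves), DCSch as a joint fraction of condensate and Schwann cells, Mc as melanocytes (pigment cells) and Neg as cells that none of the sorts took. The sources used here do not give strain, genotype, reporter alleles or sorting markers. Nothing says that replicates 1 and 2 came from separate embryos, so p-values measure the spread between these samples, which may be technical.

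Collagens are proteins of 3 chains wound into a triple helix, and the chains of 1 molecule can come from different genes. Fibrillar collagens pack into the tensile fibrils of the dermis, FACIT collagens decorate those fibrils, and type IV collagen forms the sheet of the basement membrane between epidermis and dermis and around nerves and vessels. Type VII forms the anchoring fibrils that tie that membrane to the dermis, and the transmembrane collagen XVII holds basal keratinocytes to it, so that loss of either causes blistering of the skin.

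Values are FPKM, that is fragments scaled to the length of the transcript and to the total of the library. This puts genes on 1 scale, but ratios between genes still moved with the replicate number. The median ratio of Col1a1 to Col1a2 was 0.82 in replicate 1 and 0.50 in replicate 2, so levels of different genes compare only roughly. Library depth was not stated. Tests used limma on log2(FPKM + 1), where a difference understates the change of genes with low values. Calling a gene took an adjusted p under 0.05 and a log2 difference of at least 1 in either direction. Of the 44 collagen genes 36 reached 1 FPKM in at least 2 libraries and were tested, 26 had a mean of at least 10 FPKM in a fraction and 15 a mean of at least 100. The 8 left out were Col4a3, Col4a4, Col6a4, Col6a5, Col11a2, Col13a1, Col22a1 and Col28a1, all of them low in every library. Fb, DC, Sch and Mc each had the highest summed FPKM of the marker list of their cell type. The fibroblast marker Dpp4 went the other way, with 4.58 and 5.09 FPKM in Epi and 1.34 and 2.30 in Fb. The 6 keratinocyte markers summed to 2769 to 4326 FPKM in the Pc and Epi libraries and were highest in Pc. No list was made to tell Pc from Epi. In bulk libraries fewer cells of a type and less RNA per cell cannot be told apart. Averaged over the fractions, replicates 1 and 2 also differed with the GC content of the transcript, which is given with the collagen values further down.

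**Figure D1:**
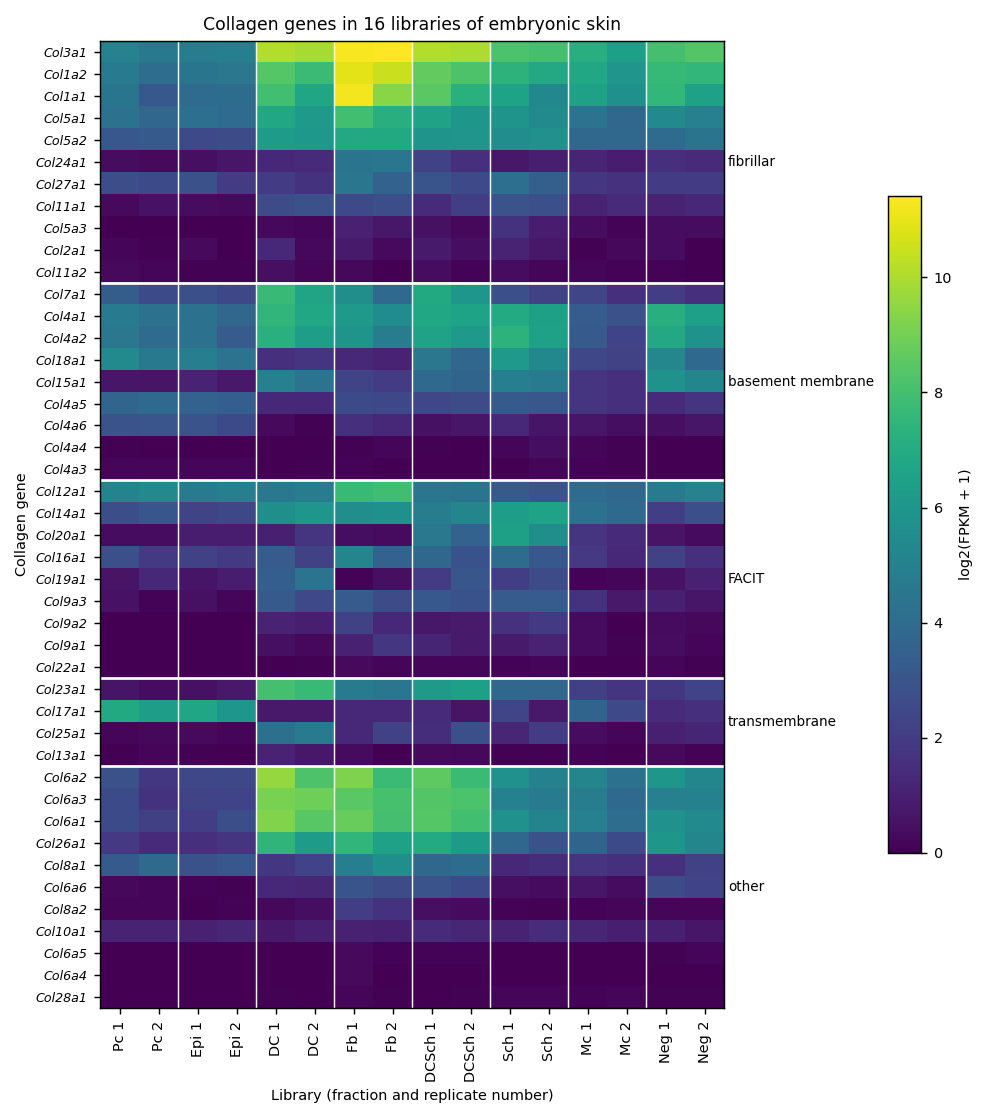
Level of the 44 collagen genes (vertical axis, grouped by class) in the 16 libraries (horizontal axis, fraction and replicate number), as log2(FPKM + 1) in colour. Col3a1 is at 2514 to 2726 FPKM in Fb and 23.7 to 32.5 in Pc and Epi, Col17a1 stands out in Pc and Epi, and Col23a1 in DC.

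Collagen RNA was concentrated in the dermal fractions. It made up 1.89% and 1.36% of all FPKM in the Fb libraries, 0.970% and 0.724% in DC and 0.767% and 0.641% in DCSch. Sch followed with 0.336% and 0.245% and Neg with 0.230% and 0.184%. The lowest shares were 0.120% and 0.0669% in Mc, 0.0803% and 0.0591% in Pc and 0.0564% and 0.0495% in Epi. The libraries of Fb, DC and DCSch lay above those of every other fraction. DC and DCSch overlapped.

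The kind of collagen differed as well. Fibrillar genes held 78.3% ± 1.32 (SD, n = 2) of the collagen FPKM in Fb and 40.6% ± 3.82 in DC, where the genes outside the 4 classes, most of them type VI, held 39.6% ± 4.43 against 15.5% ± 2.13 in Fb. Basement membrane genes held 1.77% ± 0.359 in Fb, 10.6% ± 1.41 in DC, 25.6% ± 2.69 in Sch, 22.8% ± 5.97 in Neg, 26.9% ± 1.0 in Pc and 24.2% ± 3.50 in Epi. Transmembrane genes held 27.2% ± 1.72 in Pc and 26.5% ± 5.02 in Epi, nearly all of it Col17a1. Of the 26 genes with at least 10 FPKM, the highest mean was in Fb for 11, in DC for 8, in Sch for 4, in Pc for 2 and in Neg for 1. The same shares over all genes were not computed.

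**Figure D2:**
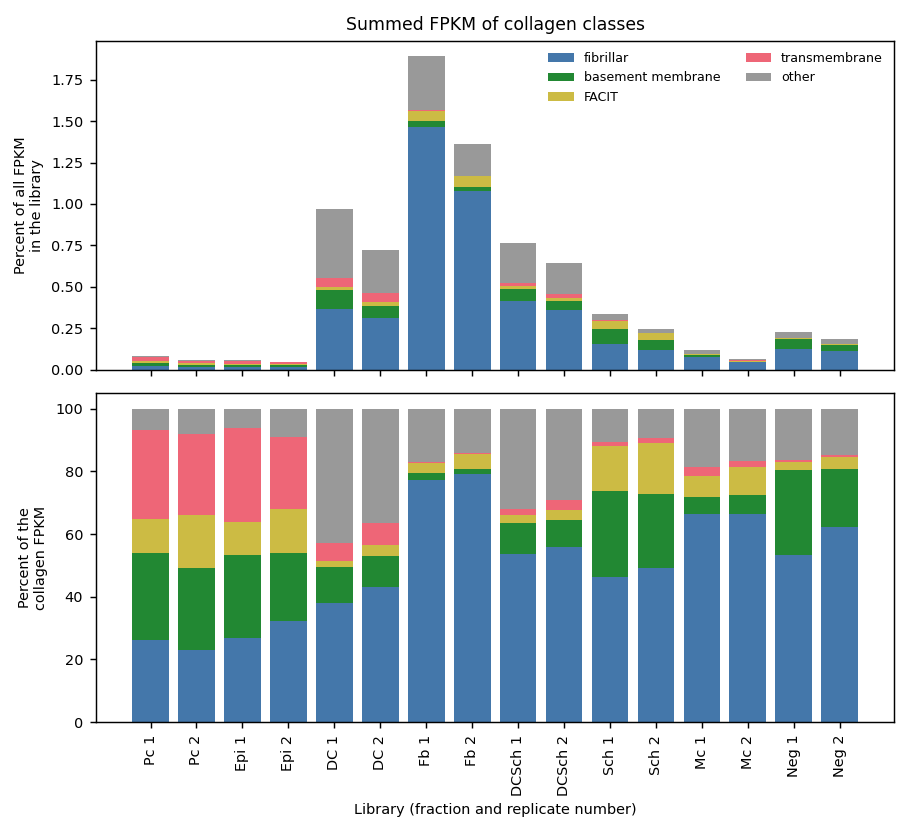
Summed FPKM of the 5 collagen groups in each library (horizontal axis), as a percent of all FPKM of the library (upper panel) and of the collagen FPKM (lower panel). Fb libraries reach 1.89% and 1.36% of all FPKM, and the transmembrane share of collagen is 28.4% and 26% in the Pc libraries.

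A test of any difference among the 8 fractions called 34 of the 36 collagen genes, against 51.6% of all genes tested. Col10a1 and the cartilage collagen Col2a1 were the 2 not called, with limma adjusted p = 0.407 and 0.18, and Col2a1 did not exceed 1.41 FPKM in any library. The file draws the locus of Col10a1 wide, over that of Nt5dc1. With DCSch left aside, a gene was taken as highest in a fraction where its difference to all 6 remaining ones passed the test. This held for 10 collagen genes, against 10.9% of all genes tested (0.00706% in Pc, 0.741% in Epi, 2.19% in DC, 1.47% in Fb, 1.93% in Sch, 1.14% in Mc and 3.38% in Neg). They were Col1a2, Col3a1, Col24a1, Col12a1, Col8a1 and Col8a2 in Fb, Col7a1, Col23a1 and Col25a1 in DC, and Col20a1 in Sch. The limma adjusted p of these 10 ran from 1.02e-05 for Col23a1 to 0.0486 for Col7a1. Col7a1 lost this call in 15 of the 16 fits with 1 library left out (all but that without Fb replicate 1), with adjusted p from 0.0524 (without DCSch replicate 2) to 0.475 (without Fb replicate 2). Col3a1 lost it without DC replicate 2 (0.106), Fb replicate 1 (0.0635) and Fb replicate 2 (0.107), and Col8a1 without Fb replicate 2 (0.282) and Pc replicate 1 (0.275). With the replicate number as a block Col7a1 (limma adjusted p = 8.85e-05), Col3a1 (0.00239) and Col8a1 (0.000698) kept the call. Col1a1 (0.000215) and Col5a1 (0.000187) were then added in Fb and Col19a1 (0.0019) in DC. A gene that passed the filter on low values through 1 fraction alone was bound to differ, so this and the counts below are descriptions.

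Col1a1 and Col1a2 encode the chains of type I collagen, the main fibril protein of the dermis, and Col3a1 encodes type III, which is abundant in fetal skin. Col3a1 (mm10, chr1:45311538-45349706) measured 2514 and 2726 FPKM in Fb, 1099 and 959.6 in DC and 1087 and 1044 in DCSch. It measured 267 and 332 in Neg, 289 and 263 in Sch and 147 and 86.5 in Mc, and was lowest in the epithelium, at 32.5 and 23.7 in Pc, and 26.9 and 29.5 in Epi. The order of fraction means was Fb, DCSch, DC, Neg, Sch, Mc, Epi, Pc. Of the neighbours in it, DCSch and DC (limma adjusted p = 0.996), Neg and Sch (0.829) and Epi and Pc (1) did not pass the test, and the other 4 steps did.

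Type I followed nearly the same order. Col1a2 measured 1963 and 1428 FPKM in Fb, 403 and 297 in DCSch, 334 and 217 in DC, 200.4 and 187 in Neg, 163 and 118 in Sch, 110.0 and 61.3 in Mc, 20.7 and 22.2 in Epi and 26.3 and 15.7 in Pc. Col1a1 measured 2344 and 662 in Fb, and 248 and 103 in DC. Type I is built from more Col1a1 than Col1a2 chains, but the ratio of Col1a1 to Col1a2 FPKM ran from 0.33 to 1.19 over the 16 libraries and passed 1 in 1 of them, Fb replicate 1. Its median was 0.82 in the replicate 1 libraries and 0.50 in the replicate 2 libraries.

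Type V collagen sets the width of type I fibrils. Its gene Col5a1 measured 248 and 147 FPKM in Fb and 110.4 and 70.1 in DC, and Col5a2, which lies next to Col3a1 on chromosome 1, 118 and 122 and 75.7 and 66.5. Both were also above every epithelial library in Sch, where Col5a1 measured 59.4 and 42.3 and Col5a2 46.7 and 52.9, against 12.5 to 18.6 and 4.78 to 8.28 in the Pc and Epi libraries. The third type V gene, Col5a3, reached its highest value in Sch, 2.23 and 0.893 FPKM. Col24a1, a minor fibrillar collagen, measured 20.1 and 21.6 FPKM in Fb against 0.206 to 3.72 elsewhere. Col27a1 measured 21.4 and 11.2 in Fb and 17.1 and 10.1 in Sch. The cartilage fibrillar collagens were low: Col11a1 did not exceed 6.52 FPKM, Col11a2 0.368 and Col2a1 1.41. Of 9 listed cartilage and bone markers 8 were in the table, and they summed to 52.0 and 51.2 FPKM in DC, 43.2 and 44.4 in Sch, 42.8 and 47.2 in DCSch and 26.7 and 26.6 in Fb. The cartilage markers Acan and Matn1 were below 1 FPKM in DC and Fb, but Matn1 measured 4.52 and 1.87, Lect1 20.1 and 22.4 and Hapln1 12.1 and 14.3 in Sch. The bone genes Sp7 (23.1 and 13.5), Ibsp (6.31 and 6.62) and Runx2 (21.5 and 29.0) were detected in DC. Runx2 was at a similar level in Fb (23.3 and 24.1) and DCSch (21.0 and 23.0). Sp7 measured 2.89 and 1.51 in Fb and 12.7 and 12.3 in DCSch, and Ibsp was below 1 FPKM in both. Their part in the collagen values was not tested.

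Basement membrane collagens did not follow the fibroblasts. Type IV is made in 3 chain combinations, and their genes lie in 3 head-to-head pairs: Col4a1 with Col4a2 (2 bases between the loci in the file), Col4a3 with Col4a4 (71) and Col4a5 with Col4a6 (1342). The first pair makes the form found in nearly all basement membranes, and the third a form found in that of the epidermis. Col4a3 and Col4a4, the chains of the glomerular membrane of the kidney, did not exceed 0.162 and 0.345 FPKM. Col4a1 (mm10, chr8:11198423-11312826) measured 181 and 112 FPKM in DC, 147 and 86.5 in Neg, 124 and 88.4 in Sch, 111 and 95.9 in DCSch, 69.4 and 46.4 in Fb, 24.7 and 18.8 in Pc, 18.8 and 12.7 in Epi and 9.06 and 6.14 in Mc. In that order DC, Neg, Sch and DCSch each overlapped with the next, and none of the steps between neighbours among them passed the test. Col4a2 ran alongside, highest in Sch at 165 and 92.0.

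Col4a5 and Col4a6 had another order. Their highest means were in the epithelium, with 12.3 and 13.8 FPKM of Col4a5 in the Pc libraries, 11.1 and 9.63 in those of Epi, and 6.58 and 6.93 (Pc) and 6.64 and 5.00 (Epi) of Col4a6. In DC, where Col4a1 was highest, Col4a5 measured 1.49 and 1.41 and Col4a6 0.221 and 0.0607. Sch had Col4a5 (8.34 and 7.54) but little Col4a6 (1.41 and 0.589). The ratio of Col4a5 to Col4a6 was 1.67 and 1.93 in Epi, 5.90 and 12.8 in Sch, 10.7 and 8.76 in DCSch and 6.72 and 23.2 in DC. The highest, in DC replicate 2, rests on 0.0607 FPKM of Col4a6, so its size is uncertain. The ratio of Col4a1 to Col4a2 stayed between 0.75 and 1.69.

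The upstream parts of this pair are shown because both genes read outward from 1 short stretch of the X chromosome, yet their ratio varied between fractions. The sequences are from RefSeq, 5′ to 3′ on the strand of each gene, taken from a window of 250 bases before to 50 after the annotated start with annotated exons left out. Between the ends of the printed parts lie 842 bases. Capitals mark matches to CCAAT on either strand.
Col4a5 (GRCm38.p6, chrX:141475169-141475369, plus strand): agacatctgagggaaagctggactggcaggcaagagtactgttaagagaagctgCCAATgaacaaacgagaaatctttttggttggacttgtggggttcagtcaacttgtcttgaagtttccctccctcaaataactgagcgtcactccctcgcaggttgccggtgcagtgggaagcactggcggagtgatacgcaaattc
Col4a6 (GRCm38.p6, chrX:141474096-141474326, minus strand): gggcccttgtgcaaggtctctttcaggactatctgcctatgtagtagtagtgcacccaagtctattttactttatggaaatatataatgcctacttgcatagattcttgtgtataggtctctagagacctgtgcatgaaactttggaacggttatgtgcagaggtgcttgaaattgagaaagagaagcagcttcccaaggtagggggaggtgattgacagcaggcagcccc
Windows of 300 bases around a start were searched on both strands for 4 motifs. These were the TATA box as TATAAA, the CCAAT box, the GC box as GGGCGG, and CTTTGA as a core of TCF/LEF sites. None of them overlapped another in the parts printed. Of the 44 collagen genes 35 had 38 windows in the RefSeq table. The TATA box was in 5 of the 38 (13.6% of all 32851 windows), the CCAAT box in 13 (37.4%), the GC box in 23 (35.7%) and the TCF/LEF core in 9 (16.0%). A match is a description of letters, not a site.

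Col7a1, the anchoring fibril collagen (mm10, chr9:108953745-108984875), measured 208 and 101 FPKM in DC, 121 and 63.4 in DCSch and 48.5 and 13.9 in Fb. The epithelial values were 9.22 and 5.00 (Pc) and 5.93 and 4.55 (Epi), with 1.98 to 5.98 in Sch, Mc and Neg libraries. Both DC values lay above both Fb values. DC and DCSch overlapped, and Fb replicate 2 was above every Pc and Epi library. Keratinocytes and fibroblasts are both known to make type VII collagen. Here DC and Fb had the higher level and the epithelial fractions the lower.

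The multiplexins Col15a1 and Col18a1 encode basement membrane proteoglycans, and the end fragment of collagen XVIII is endostatin. Col18a1 measured 71.7 and 38.8 FPKM in Sch, 42.0 and 23.9 in Pc, 37.8 and 14.0 in Neg, 28.4 and 19.6 in Epi and 22.4 and 12.7 in DCSch. It was low in Mc (4.47 and 3.69), DC (2.02 and 2.37) and Fb (1.49 and 1.14). In that order each of the first 5 fractions overlapped with the next, and all of their libraries were above all libraries of the last 3. Col15a1 measured 57.8 and 37.3 in Neg, 28.5 and 26 in Sch, 30.6 and 19.6 in DC and 13.9 and 11.8 in DCSch, but 4.04 and 3.13 in Fb and 0.533 to 1.17 in Pc and Epi. The epithelium had Col18a1 and hardly any Col15a1, and the condensate the reverse.

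**Figure D3:**
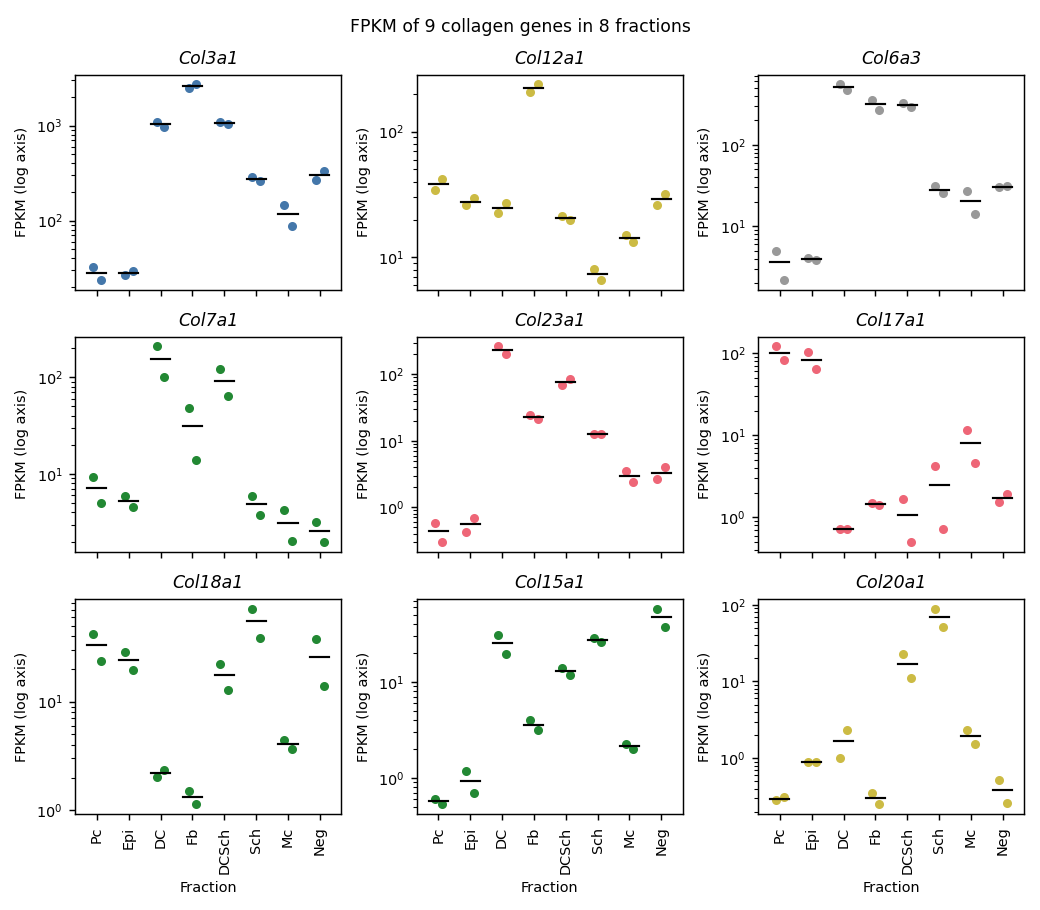
FPKM (vertical axis, log scale, a separate range per panel) of 9 collagen genes in the 8 fractions (horizontal axis). Points are the 2 libraries of a fraction and lines their mean; Col17a1 is highest in Pc (120.3 and 82.7) and Epi, Col23a1 in DC (263 and 203) and Col20a1 in Sch (89.1 and 50.9).

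FACIT collagens were split over the fractions. Col12a1, which binds type I fibrils in tissue under tension, measured 206 and 237 FPKM in Fb against 6.64 to 42.3 in the other 14 libraries, and among those it was lowest in Sch (8.05 and 6.64) and highest in Pc (34.6 and 42.3). Below Fb the order of means was Pc, Neg, Epi, DC, DCSch, Mc and Sch, and no step between neighbours in it was called. The step from Mc to Sch missed only the size threshold (log2 difference 0.87, limma adjusted p = 0.0082). The closely related Col14a1 did not share this pattern. It was highest in Sch (84.0 and 94.3), nearly level between DC (51.0 and 62.3) and Fb (48.6 and 51.4), and low in Neg (3.38 and 5.89). Col20a1, a relative of both, measured 89.1 and 50.9 in Sch and 22.7 and 11.1 in DCSch, and no more than 2.33 in any other library.

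Col19a1, a rare collagen of basement membrane zones, measured 9.58 and 19.3 FPKM in DC, 3.09 and 7.37 in DCSch and 3.38 and 5.16 in Sch, and 0.0881 and 0.387 in Fb. It lies 4944 bases from Col9a1, which went the other way, with 1.06 and 2.48 in Fb and 0.381 and 0.186 in DC. Col16a1 measured 36.1 and 11.1 in Fb and 15.3 and 7.73 in Sch, and in all 8 fractions its replicate 1 was the higher. Of the type IX genes, Col9a3 (whose locus overlaps that of Tcfl5) measured 4.71 to 8.98 in the DC, Fb, DCSch and Sch libraries. Col9a2 did not exceed 3.72 and was listed at 0 in all Pc and Epi libraries. Col22a1 did not exceed 0.232.

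Of the 4 transmembrane collagens, 1 had its highest mean in Pc and 3 in DC. Col17a1, a component of hemidesmosomes (mm10, chr19:47646341-47692042), measured 120.3 and 82.7 FPKM in the Pc libraries, 102 and 63.7 in those of Epi, 11.7 and 4.64 in Mc and 4.26 and 0.726 in Sch, and no more than 1.91 elsewhere. The keratinocyte markers moved with it: their summed FPKM was 569 and 409 in Mc and 182 and 29.6 in Sch, against 26.4 to 65.2 in DC, Fb, DCSch and Neg. All 6 markers had a mean of at least 1 FPKM in every fraction except DC, where 5 did. In Mc the largest part of the sum was Cdh1, at 224 and 236 against 252 and 241 in Epi, while Krt5 was at 142 and 76.1 against 1355 and 1104. Their part in the Col17a1 values was not tested.

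Col23a1 (mm10, chr11:51289920-51583925), a transmembrane collagen that can be shed from the cell, measured 263 and 203 FPKM in DC, 69.2 and 85.2 in DCSch, 24.1 and 21.4 in Fb, 12.6 and 12.5 in Sch and 2.39 to 3.98 in Mc and Neg, but 0.299 to 0.699 in Pc and Epi. None of these groups overlapped. Col25a1, known from neurons and from the innervation of muscle, measured 17.3 and 25.1 in DC, and at most 5.81 elsewhere. Col13a1, known from the junction of nerve and muscle, was not tested. Its values were 1.14 and 0.691 in DC and at most 0.277 elsewhere.

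Type VI collagen forms beaded filaments close to cells, from Col6a1, Col6a2 and Col6a3 chains. Col6a3 measured 553 and 476 FPKM in DC, 357 and 269.9 in Fb, 329.5 and 289 in DCSch, 29.9 and 30.9 in Neg, 30.9 and 25.4 in Sch, 26.8 and 14.0 in Mc, 4.07 and 3.89 in Epi and 5.00 and 2.19 in Pc. All 3 genes had this same order of fraction means. Across the 8 fraction means on the log2 scale, which share their libraries, Pearson's r was 0.995 or 0.999 for each of the 3 pairs, although Col6a3 lies on chromosome 1 and the other 2 on chromosome 10. The ratio of Col6a1 to Col6a2 stayed between 0.74 and 1.38. The genes of the other type VI chains, Col6a4 and Col6a5, did not exceed 0.236 and 0.216. Col6a6 measured 6.84 and 5.19 in Fb, 6.63 and 4.98 in DCSch and 5.33 and 3.91 in Neg, and 1.42 and 1.33 in DC.

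The upstream parts of the 3 genes that moved together are shown with the same source and layout. Capitals mark matches to GGGCGG or CTTTGA on either strand.
Col6a1 (GRCm38.p6, chr10:76726169-76726294, minus strand): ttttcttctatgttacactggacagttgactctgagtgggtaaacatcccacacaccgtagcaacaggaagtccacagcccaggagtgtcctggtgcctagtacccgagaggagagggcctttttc
Col6a2 (GRCm38.p6, chr10:76623631-76623880, minus strand): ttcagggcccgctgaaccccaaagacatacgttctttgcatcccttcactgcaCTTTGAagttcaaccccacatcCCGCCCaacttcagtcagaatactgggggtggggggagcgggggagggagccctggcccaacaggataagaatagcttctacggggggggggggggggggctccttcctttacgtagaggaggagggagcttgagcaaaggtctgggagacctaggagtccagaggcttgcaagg
Col6a3 (GRCm38.p6, chr1:90844002-90844221, minus strand): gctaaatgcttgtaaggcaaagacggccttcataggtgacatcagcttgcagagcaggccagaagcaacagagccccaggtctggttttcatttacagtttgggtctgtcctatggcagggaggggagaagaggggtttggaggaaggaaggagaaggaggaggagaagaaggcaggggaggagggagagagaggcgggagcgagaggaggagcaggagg
CTTTGA or its complement was in the whole windows of Col6a1, outside the printed part, and Col6a2, and in 16.0% of all windows. GGGCGG or its complement was in that of Col6a2. None of the 4 motifs was in that of Col6a3.

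Col26a1, a short collagen known from testis and ovary, measured 179 and 92.9 FPKM in Fb, 177 and 75.6 in DC, 126 and 74.0 in DCSch and 64.7 and 37.1 in Neg. Col8a1, the short-chain collagen known from the cornea and vessel walls, measured 28.4 and 50.5 in Fb, 13.2 and 15.2 in DCSch and 8.42 and 14.2 in Pc, and 2.61 and 3.87 in DC. Its partner Col8a2 measured 3.16 and 2.21 in Fb and no more than 0.363 elsewhere. Col10a1, of hypertrophic cartilage, stayed at 0.629 to 1.75 and Col28a1 at or below 0.120.

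Of the 28 possible pairs of fractions 7 were compared. Fb libraries enter 4 of them, Sch 3, and DC and Epi 2 each, so the comparisons that share libraries are not independent. Counts at an unadjusted p under 0.05 are given without the share of all genes, which was not computed at that cutoff.

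Between DC and Fb, which asks how the matrix of the condensate differs from that of the fibroblasts around it, types I and III collagen were lower in DC, and Col15a1, Col7a1, Col4a1, Col23a1, Col25a1 and Col19a1 were higher. Of the 36 collagen genes tested 19 were called, 6 higher and 13 lower in DC, against 15.3% of all genes tested (6.13% higher and 9.20% lower). The median log2 difference of the 36 was -0.33, and that of all genes -0.00326. Among fibrillar genes 6 of 10 were lower and none higher. Col1a2 was 6.15-fold lower in DC (log2 difference -2.63, SE 0.34, limma adjusted p = 0.000146), Col3a1 2.55-fold (log2 difference -1.35, SE 0.24, limma adjusted p = 0.00153) and Col1a1 8.55-fold (log2 difference -2.95, SE 0.72, limma adjusted p = 0.0118). Col24a1 (-3.10), Col27a1 (-2.21) and Col5a1 (-1.11) were lower too. The log2 differences of Col5a2 (-0.75), Col5a3 (-0.67), Col11a1 (0.11) and Col2a1 (0.19) were not called.

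Of 7 basement membrane genes 3 were higher in DC and 2 lower. Col15a1 was 7.01-fold higher (log2 difference 2.48, SE 0.27, limma adjusted p = 4.05e-05), Col7a1 4.96-fold (log2 difference 2.43, SE 0.56, limma adjusted p = 0.0087) and Col4a1 2.53-fold (log2 difference 1.31, SE 0.35, limma adjusted p = 0.0178), while the epidermal type IV genes Col4a5 (-1.23) and Col4a6 (-1.26) were lower. Col4a2 measured 153 and 80.4 FPKM in DC and 59.0 and 27.5 in Fb, a log2 difference of 1.44 that missed the threshold (limma adjusted p = 0.0853) and passed it with the replicate number as a block (adjusted p = 1.34e-05). The transmembrane genes Col23a1 (log2 difference 3.29, SE 0.24, limma adjusted p = 2.43e-06) and Col25a1 (log2 difference 2.68, SE 0.41, limma adjusted p = 0.000568) were higher in DC by 10.2 and 8.25 times. Col17a1, at or under 1.51 FPKM in both fractions, was not called.

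The FACIT class moved both ways in the same comparison. Col19a1 was higher in DC (log2 difference 3.58, SE 0.40, limma adjusted p = 4.90e-05), and Col12a1 (log2 difference -3.12, SE 0.19, limma adjusted p = 8.67e-07) and Col9a1 (-1.07) were lower. Col16a1 had a log2 difference of -1.66 and was called with the block but not without it (limma adjusted p = 0.0674 without it and 0.000236 with it). Of the remaining genes Col8a1 (-3.21), Col8a2 (-1.55) and Col6a6 (-1.55) were lower. The main type VI genes were not called: log2 differences were 0.45 for Col6a1, 0.41 for Col6a2 and 0.72 for Col6a3, with overlapping libraries for the first pair. The 6 fibroblast markers summed to 739 and 686 FPKM in DC and 2378 and 3221 in Fb, but they did not move as 1 group. Dcn (163 and 185 in DC and 1066 and 1498 in Fb), Lum (186 and 211 and 688 and 1189) and Dpt (4.09 and 3.64 and 229.6 and 245) carried the sum. Pdgfra measured 81.7 and 101 in DC and 116 and 149 in Fb, and Twist2 303 and 185 and 277 and 138. Their part in the collagen differences was not tested.

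Several of these calls were lost when 1 library was left out, in fits without the replicate block. Col1a1 lost its call without DC replicate 2 (limma adjusted p = 0.0983) and without Fb replicate 1 (0.108), as did Col5a1 (0.249 and 0.261). Col7a1 lost it without DC replicate 1 (0.0841) and Fb replicate 2 (0.0875), as did Col4a1 (0.144 and 0.136), and Col9a1 without DC replicate 2 (0.0512) and Fb replicate 2 (0.0631). Within replicate 1 alone the log2 difference of Col1a1 was -3.23 and within replicate 2 -2.67. For Col7a1 these values were 2.08 and 2.78, and for Col4a1 1.37 and 1.26.

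**Figure D4:**
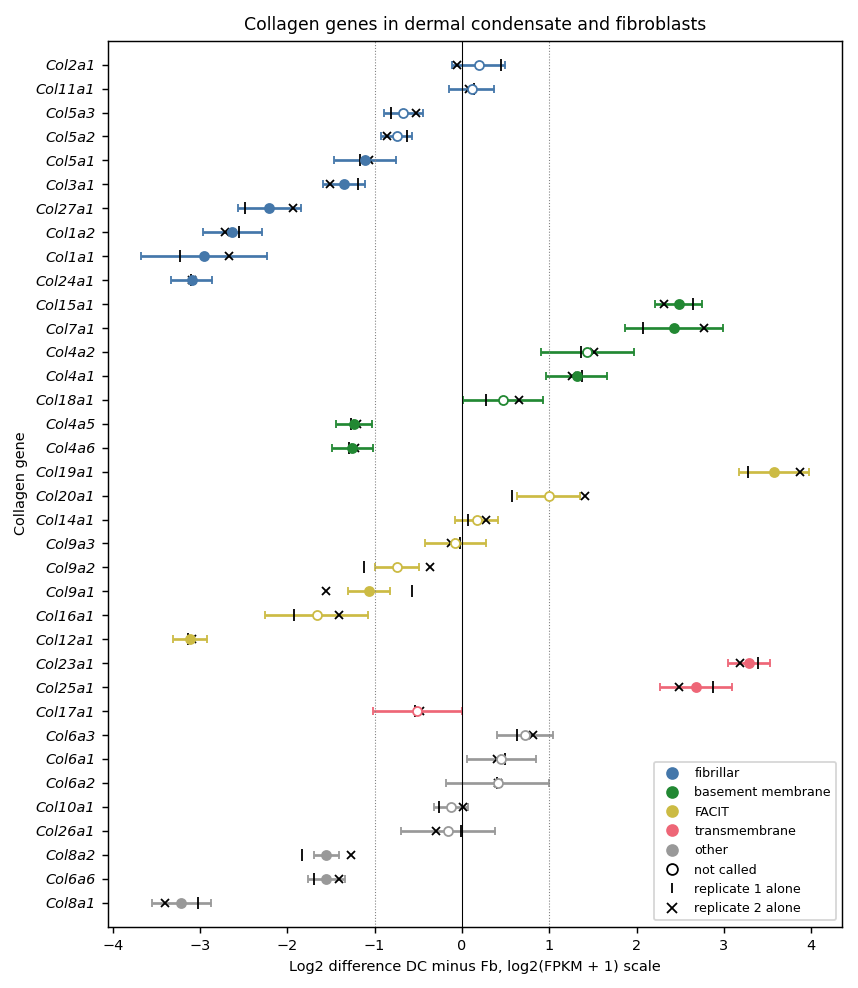
Log2 difference DC minus Fb (horizontal axis, log2(FPKM + 1) scale) of the 36 collagen genes tested (vertical axis, by class). Circles are the fitted differences, filled where called, bars are 1 SE to each side, and black marks give the difference within each replicate number; Col8a1 is lowest at -3.21 and Col19a1 highest at 3.58.

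Between Fb and Epi, the dermis and the epidermis, most collagens were higher in Fb. Of 36 tested 27 were higher and 3 lower in Fb, against 24.5% of all genes called in either direction (14.0% higher and 10.5% lower). The median log2 difference was 2.21 over the collagens and 0 over all genes. The highest differences were in types I, III and VI: Col3a1 was 92.9-fold higher (log2 difference 6.49, SE 0.24, limma adjusted p = 1.96e-08), Col1a1 99.4-fold (log2 difference 6.27, SE 0.72, limma adjusted p = 3.06e-05), Col1a2 79.0-fold (log2 difference 6.22, SE 0.34, limma adjusted p = 1.52e-07) and Col6a2 89.0-fold (log2 difference 6.03, SE 0.59, limma adjusted p = 8.10e-06). The epidermal levels of these genes, 26.9 to 29.5 FPKM for Col3a1, stood beside 6 fibroblast markers that summed to 142 and 158 FPKM in Epi against 2378 and 3221 in Fb. Dcn alone made up 124 and 133 of the Epi sum, with Lum at 7.30 and 12.3, Pdgfra at 1.60 and 1.68 and Twist2 at 2.46 and 2.91. The part of fibroblast markers in these levels was not tested.

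The 3 genes lower in Fb were Col17a1 (log2 difference -5.05, SE 0.51, limma adjusted p = 1.12e-05), Col18a1 (log2 difference -3.42, SE 0.46, limma adjusted p = 9.68e-05) and Col4a6 (log2 difference -1.32, SE 0.23, limma adjusted p = 0.000885), all of the basement membrane zone. Col4a5 had a log2 difference of -0.98 and did not pass the size threshold. In contrast Col4a1 (1.81), Col4a2 (1.56), Col7a1 (2.13) and Col15a1 (1.25) were higher in Fb. Also higher were the fibrillar Col5a1, Col5a2, Col11a1, Col24a1 and Col27a1, the FACIT Col9a1, Col9a2, Col9a3, Col12a1, Col14a1 and Col16a1, the transmembrane Col23a1 and Col25a1, and Col6a1, Col6a3, Col6a6, Col8a1, Col8a2 and Col26a1, with log2 differences from 1.39 (Col9a1) to 6.01 (Col6a1). Without Epi replicate 2 the calls of Col4a2 (limma adjusted p = 0.278), Col7a1 (0.0715), Col16a1 (0.054), Col25a1 (0.0685) and Col27a1 (0.0553) were lost. Without Fb replicate 1 those of Col4a2 (0.246), Col7a1 (0.112) and Col16a1 (0.0853) were, and Col25a1 was lost without Epi replicate 1 (0.0539) and Fb replicate 2 (0.12).

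Between Pc and Epi limma called no collagen gene, against 1.52% of all genes tested (0.155% higher and 1.37% lower in Pc), and it called none with the replicate block or under any other setting tried. At an unadjusted p under 0.05, 2 were higher in Pc and 0 lower: Col12a1 (log2 difference 0.45, SE 0.19, limma adjusted p = 0.492) and Col5a2 (log2 difference 0.55, SE 0.18, limma adjusted p = 0.242). The share of all genes at this cutoff was not computed, so the count is not read as a result about collagens. The Pc libraries had 34.6 and 42.3 FPKM of Col12a1 against 25.9 and 29.7 for Epi, and 7.49 and 8.28 of Col5a2 against 4.78 and 5.33. The libraries did not overlap for either gene. The hemidesmosome gene Col17a1 had a log2 difference of 0.30 (SE 0.51), which is within the spread of the libraries. The missing calls do not show that the levels were equal.

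Between DC and Sch, calls went both ways within the fibrillar, basement membrane and FACIT classes, while the 3 main type VI genes and 2 of 3 transmembrane genes tested were higher in DC. Of the fibrillar class 1 was higher in DC and 2 lower, of the basement membrane class 1 and 2, and of the FACIT class 2 and 1. Of 36 tested 10 were higher and 5 lower in DC, against 19.2% of all genes called (8.97% higher and 10.3% lower). The median log2 difference was 0.34, and -0.0109 over all genes. Col7a1 was 31.9-fold higher in DC (log2 difference 4.67, SE 0.56, limma adjusted p = 5.84e-05), Col6a3 18.3-fold (log2 difference 4.14, SE 0.32, limma adjusted p = 1.85e-06) and Col23a1 18.5-fold (log2 difference 4.10, SE 0.24, limma adjusted p = 3.88e-07). Col6a1, Col6a2, Col26a1, Col25a1, Col3a1, Col12a1 and Col19a1 were also higher, by 3.52 (Col26a1) to 1.5 (Col19a1) log2 units. Col20a1 (log2 difference -4.72, SE 0.36, limma adjusted p = 1.63e-06), Col18a1 (log2 difference -4.08, SE 0.46, limma adjusted p = 3.25e-05), Col27a1 (-1.99), Col4a5 (-1.87) and Col5a3 (-1.08) were lower in DC. Col1a1 was called higher with the block but not without it (log2 difference 1.35, limma adjusted p = 0.227 without and 0.00469 with it). The call of Col5a3 was lost on size without Sch replicate 1 (log2 difference -0.70), and that of Col19a1 without Sch replicate 1 (adjusted p = 0.112) or DC replicate 2 (0.134).

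The joint fraction DCSch can be placed between the other pair. Of 14 collagen genes that reached 10 FPKM in DC or Sch and differed by at least 1 log2 unit, DCSch lay between the 2 means for 12. The share of all genes that lay between was not computed, so this count is not a result about collagens. On a scale of FPKM where Sch is 0 and DC is 1 its median position was 0.646. It lay near Sch for Col25a1 (0.0875) and Col19a1 (0.0940), at 0.293 for Col23a1, at 0.531 to 0.578 for the 3 type VI genes and at 0.778 for Col20a1. Col1a1 and Col3a1 lay above both, at 1.72 and 1.05: Col1a1 measured 356 and 150.3 FPKM in DCSch, 248 and 103 in DC and 97.6 and 39.4 in Sch. The positions of the 14 genes did not fall on 1 value. The 6 fibroblast markers summed to 908 and 926 FPKM in DCSch, 739 and 686 in DC and 92.1 and 90.8 in Sch, and their part in the Col1a1 and Col3a1 values was not tested.

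Between Sch and Fb, 15 of 36 collagen genes were lower in Sch and 4 higher, against 15.4% of all genes called (6.72% higher and 8.68% lower). The median log2 difference was -0.46, and 0.0148 over all genes. The 4 that were higher were Col20a1 (log2 difference 5.72, SE 0.36, limma adjusted p = 6.62e-07), Col18a1 (log2 difference 4.54, SE 0.46, limma adjusted p = 1.70e-05), Col15a1 (log2 difference 2.63, SE 0.27, limma adjusted p = 1.93e-05) and Col19a1 (log2 difference 2.08, SE 0.40, limma adjusted p = 0.00228), each a FACIT or multiplexin collagen. Col4a2 had a log2 difference of 1.59 and was called with the block (limma adjusted p = 0.06 without and 5.31e-06 with it). Among the lower genes were Col12a1 (log2 difference -4.74, SE 0.19, limma adjusted p = 5.55e-08), Col1a1 (-4.31), Col1a2 (-3.58), Col3a1 (-3.24), Col24a1 (-3.59) and Col8a1 (-3.89). Col5a1, Col5a2, Col6a1, Col6a2, Col6a3, Col6a6, Col7a1, Col8a2 and Col26a1 completed the 15, from -1.25 (Col5a2) to -3.67 (Col26a1). None of the 3 transmembrane genes was called, with 1 lower at an unadjusted p under 0.05. That gene, Col23a1, was higher in Fb than in Sch by 0.81 log2 units (limma adjusted p = 0.0335) and missed only the size threshold. Col7a1 lost its call without Fb replicate 1 (adjusted p = 0.13) and without Sch replicate 2 (0.099).

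Between Mc and Sch, fractions whose cells both come from the neural crest, every called collagen was lower in Mc. These were 18 of the 36, against 11.8% of all genes called (4.53% higher and 7.31% lower). At an unadjusted p under 0.05, where the share of all genes was not computed, 2 were higher and 23 lower. The median log2 difference was -1.17, and -0.0103 over all genes. Col20a1, of the FACIT class, had the largest log2 difference (-4.56), and 4 basement membrane genes came next: Col4a2 was 21.0-fold lower (log2 difference -4.20, SE 0.54, limma adjusted p = 0.000151), Col4a1 14.0-fold (log2 difference -3.64, SE 0.35, limma adjusted p = 1.37e-05), Col18a1 13.5-fold (log2 difference -3.41, SE 0.46, limma adjusted p = 0.000222) and Col15a1 12.8-fold (log2 difference -3.17, SE 0.27, limma adjusted p = 5.63e-06). The FACIT genes Col14a1 (-2.43), Col19a1 (-2.21), Col9a3 (-2.10), Col16a1 (-2.0) and Col9a2 (-1.61) were lower as well. Col3a1, Col5a1, Col5a2, Col5a3, Col11a1, Col27a1, Col4a5 and Col23a1 were lower too, with log2 differences from -1.06 (Col5a3) to -2.11 (Col27a1).

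The main type VI genes were not called: Col6a1 measured 30.1 and 15.8 FPKM in Mc and 53.5 and 34.4 in Sch (log2 difference -0.94, SE 0.40, limma adjusted p = 0.156). With the block 2 more genes were called, Col17a1 higher in Mc (limma adjusted p = 0.0793 without and 0.00903 with it) and Col25a1 lower (0.0506 and 0.00787). Schwann cell markers summed to 247 and 257 FPKM in Mc against 1584 and 1857 in Sch. The call of Col16a1 was lost without any 1 of the 4 libraries, with adjusted p = 0.0814 (without Mc replicate 1), 0.233 (Mc replicate 2), 0.224 (Sch replicate 1) and 0.0557 (Sch replicate 2). Without Mc replicate 2 the calls of Col5a1 (0.0888) and Col5a3 (0.0681) were lost, and that of Col3a1 on size (log2 difference -0.91). Without Sch replicate 1 the call of Col5a1 was lost (0.069), and that of Col5a3 on size (log2 difference -0.68).

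Between Neg and Fb, 21 of 36 collagen genes were lower in Neg and 2 higher, against 15.5% of all genes called (7.77% higher and 7.71% lower). The median log2 difference was -1.58, and 0.00464 over all genes. The 2 higher genes were the multiplexins, Col18a1 by 19.7 times (log2 difference 3.39, SE 0.46, limma adjusted p = 0.000186) and Col15a1 by 13.3 times (log2 difference 3.38, SE 0.27, limma adjusted p = 3.71e-06). Col4a1 measured 147 and 86.5 FPKM in Neg and 69.4 and 46.4 in Fb and was not called (log2 difference 0.98, SE 0.35, limma adjusted p = 0.07). Both Neg values were above both Fb values. Endothelial markers were higher in Neg as well: all 5 were detected, and they summed to 351 and 259 FPKM in Neg against 5.88 to 21.1 in the other 14 libraries. In Sch, where Col18a1 measured 71.7 and 38.8 and Col15a1 28.5 and 26, these markers summed to 12.9 and 12.2. Mural cell markers summed to 89.2 and 112 in Neg and 73.1 and 91.6 in Fb, and skeletal muscle markers to 2519 and 2295 and 31.3 and 54.6. Erythroid markers were the highest of the other cell types, at 32108 and 35017 in Neg and 42.9 and 208 in Fb, and mast cell markers summed to 969 and 1174 and 1.44 and 20.6. The part of these cell types in the collagen values was not tested.

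Among the 21 lower genes, Col3a1 was 8.75-fold lower in Neg (log2 difference -3.13, SE 0.24, limma adjusted p = 2.82e-06), Col1a2 8.75-fold (log2 difference -3.11, SE 0.34, limma adjusted p = 3.55e-05) and Col14a1 10.8-fold (log2 difference -3.21, SE 0.25, limma adjusted p = 2.90e-06). Col8a1 had a log2 difference of -3.38, Col6a3 -3.31, Col1a1 -3.23 and Col7a1 -2.95. Col5a1, Col5a2, Col11a1, Col24a1, Col27a1, Col9a1, Col9a2, Col9a3, Col12a1, Col16a1, Col23a1, Col6a1, Col6a2 and Col8a2 were the others. Col6a6 was not called (-0.32), and Col26a1 was called with the block but not without it (limma adjusted p = 0.0999 without and 0.00147 with it). Without Fb replicate 1 or Neg replicate 2 the calls of Col1a1 (adjusted p = 0.0694 and 0.0632) and Col16a1 (0.0896 and 0.0744) were lost, and that of Col9a1 on size without Fb replicate 2 (log2 difference -0.77).

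Collagen chains need their own enzymes and chaperones, and 31 such genes were listed, 30 of them in the table and 29 tested. In DC against Fb 16 of the 29 were lower and 1 higher, against 9.20% and 6.13% of all genes. With the replicate block 18 were lower, with Plod1 (limma adjusted p = 0.103 without and 0.000479 with it) and Adamts2 (0.0517 and 0.00398) added. Lower genes included Pcolce, which enhances the cleavage of procollagen (16.0 against 153 FPKM as means; log2 difference -3.11, SE 0.44, limma adjusted p = 0.000315), the proline hydroxylase genes Leprel1 (-3.41) and P4ha3 (-2.75), Serpinh1, the collagen chaperone (-1.19), and Creb3l1, a transcription factor that acts on type I collagen genes (-2.69). Sec24d, of the coat that exports procollagen, was lower as well (-2.17). Tmem38b, an ion channel of the endoplasmic reticulum, was the 1 higher gene (10.5 against 3.11; log2 difference 1.48, SE 0.41, limma adjusted p = 0.0235). In Fb against Epi 25 were higher and 0 lower, against 14.0% and 10.5% of all genes, led by Pcolce (5.43) and the chaperone gene Fkbp10 (4.95), with 0 lower also at an unadjusted p under 0.05. The block added Adamts14 (limma adjusted p = 0.0612 without and 4.64e-05 with it).

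Against Fb, 21 of the 29 were lower in Sch and 20 in Neg, with none higher in either, against 8.68% and 7.71% of all genes lower. With the block 24 were lower in Sch, adding Plod1 (limma adjusted p = 0.109 without and 0.000479 with it), Fkbp10 (0.0704 and 0.000241) and Leprel4 (0.0709 and 9.18e-05), and 22 in Neg, adding Leprel1 (0.052 and 0.00643) and Bmp1 (0.052 and 0.000118). At an unadjusted p under 0.05, 0 were higher in Sch and 1 in Neg. In DC against Sch 5 were higher, against 8.97% of all genes, among them the procollagen proteinase genes Adamts2 (2.37) and Adamts14 (2.47), and Fkbp10 was lower (-1.34), and the block added Bmp1 as higher (limma adjusted p = 0.17 without and 0.0015 with it). In Mc against Sch 2 were higher (Pcolce2, listed at 0 in both Sch libraries, and Leprel1) and 4 lower, against 4.53% and 7.31% of all genes. With the block 7 were lower, adding Pcolce (limma adjusted p = 0.106 without and 0.00453 with it), Sec23a (0.058 and 6.46e-06) and Leprel4 (0.0771 and 9.90e-05). Between Pc and Epi limma called none, against 1.52% of all genes, with 1 higher at an unadjusted p under 0.05.

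Of 12 listed collagen receptor genes, all in the table, 10 were tested. In Fb against Epi 5 were higher and 3 lower, against 14.0% and 10.5% of all genes. The receptors of fibrillar collagen on mesenchymal cells were higher in Fb than in Epi: Ddr2, a tyrosine kinase (87.0 against 1.04 FPKM; log2 difference 5.41, SE 0.31, limma adjusted p = 2.04e-07), the integrin gene Itga11 (14.4 against 0.188; log2 difference 3.67, SE 0.27, limma adjusted p = 1.07e-06), and Itga1, Itgb1 and the endocytic receptor Mrc2 made up the 5. The 3 lower in Fb were the kinase gene Ddr1 (-2.12), the integrin gene Itga2 (-1.69) and Gpr56, a receptor for type III collagen (-4.58). In DC against Fb Itga11 was the 1 gene called, lower in DC (-1.83), against 15.3% of all genes called in either direction, while Ddr2 was not. Sch had 1 receptor gene higher than Fb and 3 lower, against 6.72% and 8.68% of all genes. The higher one was Itga2 (21.2 against 0.780, log2 difference 3.66, SE 0.39, limma adjusted p = 2.88e-05). DC had 4 higher than Sch and 1 lower, Itga2, against 8.97% and 10.3% of all genes. Mc had 1 higher than Sch and 2 lower, against 4.53% and 7.31%. That 1 was Gpr56 (46.9 against 0.979, log2 difference 4.64, SE 0.25, limma adjusted p = 1.99e-07). Neg had 3 higher than Fb and 3 lower, against 7.77% and 7.71%. None of the 10 was called between Pc and Epi, against 1.52% of all genes, nor at an unadjusted p under 0.05.

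The gap between replicates of GC-rich collagen genes ran through the fractions. Over the 26 collagens with at least 10 FPKM, the mean log2 difference of replicate 1 and replicate 2 rose with the GC content of the longest coding transcript (Pearson's r = 0.885, Spearman's rho = 0.878; these genes share the 16 libraries). Over 12664 tested genes r was 0.852. The median difference was 0.40 for the 26 collagens and 0.01 for all genes. It was 1.09 for Col1a1, 0.88 for Col16a1, 0.87 for Col6a2, 0.85 for Col4a2 and 0.83 for Col7a1. At the other end it was -0.54 for Col19a1 and -0.42 for Col25a1. In all 8 fractions replicate 1 was the higher for 7 of the 26, or 26.9%, against 13.2% of all genes. Col1a1, Col4a2, Col7a1, Col16a1, Col19a1 and Col25a1 are also among the genes whose calls changed with the block or with a library left out. Calls of Col4a1, Col5a1 and Col27a1, with smaller replicate differences (0.51, 0.53 and 0.44), changed in those fits too. The share of the 26 whose calls changed was not computed. Col6a2 lost no call in those fits. Col3a1 and the low gene Col9a1 did lose calls, although their replicate differences were small (0.13 and -0.00061). The part of GC content in the replicate gap was not tested.

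**Figure D5:**
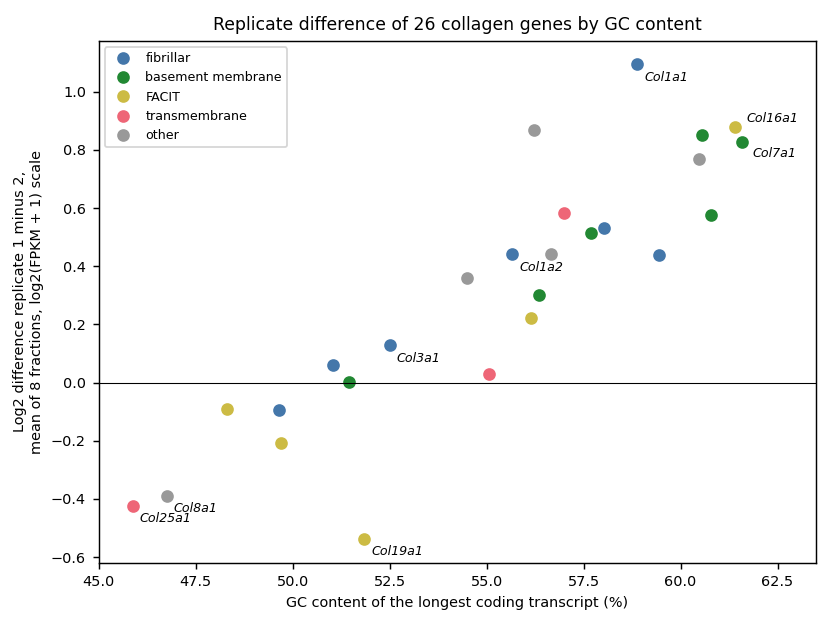
Mean over the 8 fractions of the log2 difference of replicate 1 and replicate 2 (vertical axis, log2(FPKM + 1) scale) against the GC content of the longest coding transcript (horizontal axis, percent), for the 26 collagen genes with a mean of at least 10 FPKM in a fraction, coloured by class. Col1a1 is at 1.09 and Col19a1 at -0.54.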

How the data were processed

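RNA-seq values of 16 libraries were used, 2 for each of 8 sorted fractions of mouse skin at embryonic day 14.5. Per the labels' protocols, the RNA integrity number was 8.8 or more, and each library was made from 100 ng of cDNA amplified from 6 ng of RNA. The authors deposited 1 table of FPKM values for 23235 rows. The build mm10 and the tools Cufflinks 2.1.1, TopHat2 2.0.3 and Bowtie2 are listed, with no roles, per the submitters' processing notes. No source used here says if a scaling between libraries followed. Depth is not given in the sources used here, and ratios of low values between replicates showed no common step from which to read it, so no counting interval is given.

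From these values log2(FPKM + 1) was computed for the 14171 rows with at least 1 FPKM in at least 2 libraries. All 16 libraries entered 1 limma model (version 3.58.1, R 4.3.3) with a mean for each fraction and a trended, robust spread. P-values were adjusted over all rows by the Benjamini-Hochberg method. The script was tested on simulated data. Deviations of same-numbered replicates went together in all 28 pairs of fractions (correlation across genes 0.148 to 0.656), so the numbers were read as pairing the samples. The main model and the fits with a library left out have no term for this pairing, so their SEs and p-values include the replicate gap. Values with the replicate block are given mainly where they change a call. Alternatives were pseudocount 0.1, no filter, rescaled totals, quantile normalization, the block, only the 4 libraries compared, each library left out and, chosen after seeing the data, a correction for GC content.

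The collagen genes, the marker lists and the lists of 31 biosynthesis and 12 receptor genes were chosen with earlier results of these data known. A collagen with a mean of at least 10 FPKM in a fraction was described by library, and every one called was named. Loci are those of the file with starts made 1-based (10534 of 21404 starts then equal those of RefSeq, against 670 as written). No collagen symbol is among the 434 rows that share one. GC content came from GENCODE, and upstream sequences from RefSeq (GRCm38.p6).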

Additional observations from a re-analysis of the deposited data

How the results depend on the processing

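Every count of called collagen genes stayed within 1.5 times its reported value in all settings, and no called gene changed direction. With the replicate block DC against Fb went from 19 to 21 genes, DC against Sch from 15 to 16, Mc against Sch from 18 to 20, Neg against Fb from 23 to 24 and Sch against Fb from 19 to 20, while Fb against Epi stayed at 30 and Pc against Epi at 0. The block changed no call of a collagen gene other than those given with the comparisons. With 1 library left out the counts ran from 16 to 18 for DC against Fb, 26 to 30 for Fb against Epi, 15 to 17 for Mc against Sch, 13 to 17 for DC against Sch, 21 to 23 for Neg against Fb and 18 to 19 for Sch against Fb. The genes highest in 1 fraction numbered 8 to 9 in those fits and 13 with the block, and those with any difference 33 to 35. Where a fraction then held 1 library, that library was assumed to vary like the others. The calls kept in every setting numbered 13 of 19 for DC against Fb, 25 of 30 for Fb against Epi, 14 of 18 for Mc against Sch, 13 of 15 for DC against Sch, 19 of 23 for Neg against Fb and 18 of 19 for Sch against Fb. With only the 4 libraries compared DC against Fb had 13 genes. When library totals were rescaled, the middle gene of all those tested had a log2 difference of 0.20 for Fb against Epi, -0.20 for Neg against Fb, -0.15 for Mc against Sch and 0.12 for Sch against Fb. With GC-corrected libraries, a setting chosen after seeing the data, DC against Fb had 21 genes. The cause of these shifts was not tested. With 2 libraries per fraction and depth unknown, the counting error of low genes such as Col9a1 or Col8a2 could not be given.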
